A study of Mus musculus with 23 samples.

Results

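Lungs of adult mice that had not been challenged with allergen were compared by the exposure of their mothers. The comparison took 14 of the 23 RNA-Seq libraries of the series, 7 labelled developmental PM2.5 with PBS (PM) and 7 labelled developmental saline with PBS (Sham), and was made on the 16232 of 35322 listed genes that had at least 0.5 RPM, the reads of a gene scaled to equal library totals, in at least 4 of the 14 libraries. All 14 mice were Balb/c, the series text describes them as female and 13 weeks old, and none was labelled as given ovalbumin (OVA). PM dams were given PM2.5 in saline through the nose before mating, through gestation and until weaning, and Sham dams were given the saline alone, so the offspring were never dosed themselves. In the study's methods the controls inhaled nebulised saline, whereas the labels name PBS. The methods describe an injection of OVA for sensitisation without saying that the controls were left out of it, so the 14 mice are unchallenged and may have been sensitised, and the lungs were taken after lung function was measured with methacholine in anaesthetised animals. The labels do not give the dam of each mouse, so littermates may be among the replicates and p-values then measure the spread between these samples only. The remaining 9 libraries are 5 Sham-OVA and 4 PM-OVA lungs, which share no mouse with the 14 and were used only where named.

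PM2.5 is the fraction of airborne dust fine enough to reach the alveoli. In lungs that inhale it, aromatic hydrocarbons on the particles activate the aryl hydrocarbon receptor, which switches on Cyp1a1, while metals and oxidants engage the factor NRF2 and its antioxidant targets. Exposure of the mother is studied because the fetal and neonatal lung still builds its alveoli, vessels and matrix, and because DNA methylation set in that window can persist after the exposure has ended. The question of the comparison was therefore which transcripts differed between the grown offspring without an OVA challenge.

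No gene passed the test between PM and Sham lungs. With limma on log2(RPM + 0.5), 0 of 16232 genes (0%) had an adjusted p under 0.05 after Benjamini-Hochberg correction, and the smallest adjusted p was 0.904. The quasi-likelihood test of edgeR and the Wald test of DESeq2 on the recovered reads also called 0 genes. At an unadjusted limma p under 0.05 there were 671 genes (4.13%), of which 381 were higher (2.35%) and 290 lower (1.79%) in PM. If p-values had filled 20 equal bins evenly, each bin would have held 811.6 genes, so the lowest bin held fewer than that. The split between higher and lower depended on the scaling, since TMM scaling gave 266 higher and 389 lower, and edgeR gave 255 higher and 500 lower. The groups overlapped for every tested gene except 1 lower in PM, Rpl3l (0.00616% of genes), and for 0 genes (0%) did all PM values lie above all Sham values.

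The differences were also small. The median log2 difference over all genes was 0.02 (quartiles -0.08 and 0.10), with a median standard error of 0.13, and 8 genes had an absolute log2 difference above 1. The 95% interval lay wholly within a log2 difference of 1 in either direction for 16008 genes (98.6%), and wholly within 1.5-fold for 13241 (81.6%). For these genes a larger maternal difference lies outside the interval, and for the other 224 the interval also holds differences past a log2 of 1. The depth was even between the groups, with 13827228 to 16671489 reads on genes in Sham (median 15009979) and 13089691 to 17393579 in PM (median 15028212).

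**Figure D1:**
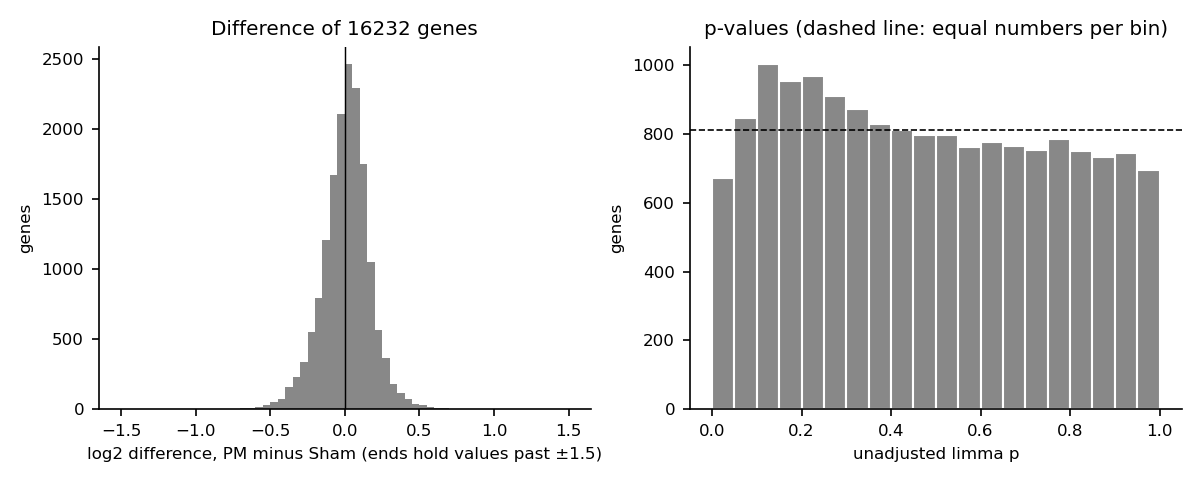
Left, number of genes (y axis) by log2 difference, PM minus Sham (x axis), for the 16232 tested genes. Right, number of genes by unadjusted limma p in 20 bins, with a dashed line at 811.6 genes per bin. The differences centre near 0 with quartiles of -0.08 and 0.10, and the lowest bin of p holds 671 genes.

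The tissue was lung by its markers, and some libraries stood apart from the rest. Sftpc, the surfactant protein of alveolar type 2 cells, lay between 6490 and 18493 RPM over the 14 libraries, and Scgb1a1, the secretory protein of club cells, between 13001 and 34397 RPM. The endothelial Cldn5 (312 to 1378 RPM) and Pecam1 (459 to 1393 RPM) and the alveolar type 1 marker Ager (1242 to 2272 RPM) were present in all 14. The macrophage receptor Marco was at 0.808 to 5.93 RPM. Sham replicate 1 went against the female label. Its Xist, the RNA that silences an X chromosome, was at 0.289 RPM where the other Sham lungs held 528 to 1618 RPM and the PM lungs 645 to 1385 RPM, and its 5 Y-linked genes summed to 222 RPM where no other lung exceeded 0.132 RPM. Without it, 0 genes were called, and 375 were higher and 392 lower at an unadjusted p under 0.05. PM replicate 5 had 5031 RPM of capillary endothelial transcripts against 12165 to 14005 RPM in the other PM libraries, and 37828 RPM of surfactant and type 2 transcripts against 20635 to 23887 RPM. Without it, 0 genes were called, and 587 were higher and 333 lower. Libraries of both groups stood apart on the first principal component, the axis along which the 14 varied most (23.9% of variance). Sham replicate 3 lay at 43.2, PM replicate 5 at 37.4 and Sham replicate 7 at 21.1, and the rest at -16.7 to -1.22. The capillary sum was also low in Sham replicates 3 and 7, at 7987 and 8738 RPM against 11604 to 14061 RPM in the other Sham lungs. In bulk lung, fewer cells of a type and less RNA per cell cannot be told apart.

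The gene with the smallest p was Scd1 (GRCm38 chr19:44394455-44407879), the stearoyl-CoA desaturase that makes monounsaturated fatty acids. Scd1 was at 366 RPM in the lowest, 620 in the median and 773 in the highest Sham lung, and at 703, 1003 and 1363 RPM in PM. The groups overlapped by PM replicate 2 alone, and the other 6 PM lungs lay above every Sham lung. The log2 difference was 0.80 (SE 0.19, 95% interval 0.39 to 1.22), with an unadjusted p of 0.00069 and an adjusted p of 0.904 by limma. The adjusted p was also 0.904 for each of the other 23 genes described next, the 12 with the smallest p in each direction, so none of them passed the threshold.

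The other 11 genes on the higher side begin with Foxs1 and Pdgfrb. Foxs1, a forkhead factor of pericytes, was at 2.26, 4.50 and 6.63 RPM (lowest, median, highest) in Sham and 5.83, 7.63 and 9.74 RPM in PM, a log2 difference of 0.73 (SE 0.18). Pdgfrb, the receptor by which pericytes and fibroblasts receive PDGF-B, was at 133, 186 and 196 RPM in Sham and 195, 220 and 267 RPM in PM, a log2 difference of 0.32 (SE 0.09). For both genes 6 of the 7 PM lungs lay above every Sham lung. Vcam1, the adhesion receptor for leukocytes, was at 86.4, 109 and 134 RPM in Sham and 118, 126 and 149 RPM in PM (log2 difference 0.29, SE 0.09), and here 3 PM lungs lay above every Sham lung. Others on this side were Rgs4, a regulator of G protein signalling (0.38), Dpysl3, a cytoskeletal protein best known from neurons (0.34), the matrix protein gene Egflam (0.27), the mitotic kinesin Kif4 (0.52), Tnfrsf8, which encodes the lymphocyte receptor CD30 (0.58), Ccdc3 (0.45), Tmem26 (0.60) and Fbxo47 (0.61). Tnfrsf8 and Fbxo47 were near the detection limit, with highest values of 1.31 and 0.688 RPM, where 1 read was worth 0.0502 to 0.0688 RPM. In a list of 13 pericyte genes compiled after Foxs1 and Pdgfrb were seen, and holding both as well as Postn of the matrix list, 4 had an unadjusted p under 0.05 on the higher side and the median log2 difference was 0.18, a count that follows in part from how the list was made. The median of that list was 0.08 without Sham replicate 3 and 0.11 without Sham replicate 1.

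On the lower side, Rpl3l (chr17:24727820-24736143), a striated muscle form of ribosomal protein L3, was at 0.347, 0.669 and 0.951 RPM in Sham and 0.132, 0.260 and 0.344 RPM in PM. The log2 difference was -0.61 (SE 0.16). The groups did not overlap, but the highest PM and the lowest Sham value, 0.344 and 0.347 RPM, nearly met, and all values were under 1 RPM. Tmem258, a subunit of the enzyme that attaches N-glycans, was at 3.95, 5.07 and 6.31 RPM in Sham and 2.70, 3.60 and 4.33 RPM in PM (log2 difference -0.46, SE 0.12), with 5 PM lungs below every Sham lung. Sult1a1, a sulfotransferase that conjugates phenols, was at 35.3, 47.5 and 66.3 RPM in Sham and 31.0, 35.6 and 40.4 RPM in PM (log2 difference -0.40, SE 0.12), with 3 PM lungs below every Sham lung. The others were Ces1f, a carboxylesterase (-0.67), Atp2b2, a calcium pump of the plasma membrane (-0.63), the long non-coding RNA Miat (-0.77), Iqcg, a protein of motile cilia (-0.33), the cytidine deaminase relative Apobec4 (-0.60), the actin-binding Coro6 (-0.53), the connexin gene Gja6 (-0.49), Adgrf3 (-0.56) and Fam71f2 (-0.56). Of the 24 genes, more than Fbxo47 and Rpl3l averaged under 1 RPM over the 14 libraries and were left out by a filter at that mean. Sult1a1 and Ces1f act in drug metabolism, and the wider xenobiotic list is given with the aryl hydrocarbon receptor.

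**Figure D2:**
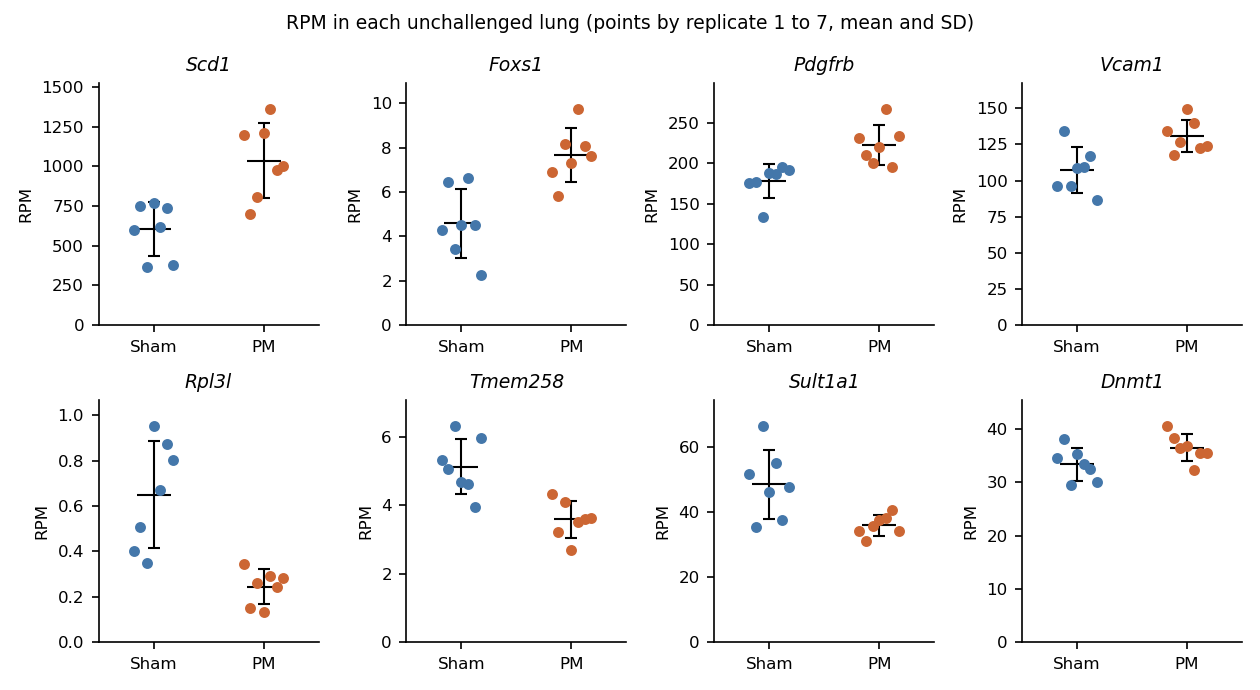
RPM (y axis, from 0) of 8 genes in each of the 7 Sham and 7 PM lungs, with the mean and SD of each group as horizontal and vertical black lines. Scd1, Foxs1 and Pdgfrb have 6 PM points above all Sham points, Rpl3l has no overlap and lies below 1 RPM, and the points of Dnmt1 overlap.

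None of the transcripts that direct PM2.5 exposure is known for passed the test. Cyp1a1, the classical target of the aryl hydrocarbon receptor, was at 18.7, 33.6 and 42.5 RPM in Sham and 7.69, 42.2 and 76.9 RPM in PM, a log2 difference of 0.25 whose 95% interval ran from -0.51 to 1.01 (limma, adjusted p = 0.936). The lowest value was that of PM replicate 5 and the highest that of PM replicate 7. Cyp1b1, a relative under the same receptor, had a log2 difference of -0.13 (interval -0.49 to 0.24). Ahrr, the repressor of the receptor, was near the detection limit (0.116 to 1.27 RPM) and its interval ran from -0.52 to 0.52. Of 24 tested genes for the aryl hydrocarbon receptor and xenobiotic metabolism 0 were called. On the lower side 1 had an unadjusted p under 0.05 (4.17%, beside 1.79% of all genes) and on the higher 0. The median log2 difference was -0.14 beside 0.02 for all genes, with 18 members below 0 and 6 above, beside 55.3% of all genes above 0. The 1 gene was Gsta3, a glutathione transferase, at 63.8, 90.0 and 121 RPM in Sham and 44.4, 72.6 and 81.1 RPM in PM.

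The antioxidant genes under NRF2 had their values on both sides of 0. Hmox1, which degrades heme, was at 25.6, 40.0 and 45.3 RPM in Sham and 35.5, 40.3 and 74.4 RPM in PM, a log2 difference of 0.23 (interval -0.10 to 0.56). The medians of Hmox1 were nearly equal, and its highest value was that of PM replicate 5. Nqo1, a quinone reductase, had a log2 difference of 0.01 (interval -0.27 to 0.30), and its sign turned with TMM scaling. In the list of 26 genes 0 were called and 2 had an unadjusted p under 0.05, both lower in PM (7.69%, beside 1.79% of all genes). These were the peroxiredoxin Prdx6 (log2 difference -0.20) and Gpx4, which reduces lipid peroxides (-0.41). Gpx4 had few reads, at a mean of 4.07 RPM in Sham and 2.87 RPM in PM, while Prdx6 was at 395 and 342 RPM. The median of the list was 0.01.

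No DNA methylation enzyme passed the test or had an unadjusted p under 0.05. Dnmt1, which copies methylation to new DNA strands, was at 29.5, 33.4 and 38.2 RPM in Sham and 32.2, 36.4 and 40.5 RPM in PM, a log2 difference of 0.13 (interval -0.02 to 0.28). For the enzymes that set new methylation, the difference was -0.03 for Dnmt3a (interval -0.18 to 0.13) and -0.25 for Dnmt3b (interval -0.58 to 0.08). All 3 intervals lie within 1.5-fold in either direction, that of Dnmt3b only just. Among 19 tested genes that write, read or remove DNA methylation, 0 were called and 0 had an unadjusted p under 0.05, and the summed RPM lay between 1356 and 1499 in Sham and between 1338 and 1582 in PM. The summed level of this list had the least spread of the 50 lists. Among 40 histone modifiers the counts were likewise 0 and 0, with a median of -0.02 and the smallest p for Eed, a subunit of the Polycomb complex (log2 difference -0.15).

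Collagen and matrix genes lay mostly on the higher side, without any call. Of 28 tested genes 0 were called (0% over all genes), 15 had an unadjusted p under 0.05 on the higher side (53.6%, beside 2.35% of all genes) and 0 on the lower, and the median log2 difference was 0.33. A difference above 0 was found for 27 of the 28, beside 55.3% of all genes, and the exception was Timp3, an inhibitor of matrix proteases (-0.01). Mmp14, a membrane protease that cuts collagen, was at 77.6, 101 and 108 RPM in Sham and 95.4, 126 and 190 RPM in PM (log2 difference 0.40, SE 0.13). Postn, a matrix protein of activated fibroblasts, was at 192, 251 and 277 RPM in Sham and 249, 292 and 332 RPM in PM (0.26, SE 0.09). For Mmp14 5 and for Postn 6 of the 7 PM lungs lay above every Sham lung, while Fbn1 (0.45), the lysyl oxidase relatives Loxl1 (0.36) and Loxl2 (0.41), and the basement membrane collagens Col4a1 (0.43) and Col4a2 (0.39) were also among the 15.

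Single lungs carried part of this difference. Fn1, which encodes fibronectin, was at 312, 455 and 536 RPM in Sham and 451, 566 and 1627 RPM in PM, and tenascin C (Tnc) was at 23.5, 29.5 and 41.7 RPM in Sham and 29.6, 38.7 and 186 RPM in PM. Both highest values, and that of Col1a1 (405 RPM, beside 151 to 183 RPM in Sham), were those of PM replicate 5, whose list sum was 15237 RPM against 7887 to 9879 RPM in the other PM and 6621 to 8662 RPM in the Sham lungs. Leaving out each library gave between 11 and 18 genes at an unadjusted p under 0.05, and 12 without PM replicate 5. Without both PM replicate 5 and Sham replicate 3, which had the lowest Col4a1 (460 RPM), 9 of 28 genes had that p and the median was 0.20. The part of the cell types that moved in these lungs was not tested. At an unadjusted p under 0.05 on the higher side there were 0 of 16 lung fibroblast genes (median 0.12), 1 of 26 smooth muscle genes (median 0.04) and 4 of 13 pericyte genes (median 0.18, Postn among the 4), and these lists were not tested against the matrix list. Acta2, the smooth muscle actin, was at 113, 132 and 178 RPM in Sham and 110, 151 and 302 RPM in PM, a log2 difference of 0.19 (interval -0.16 to 0.55).

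**Figure D3:**
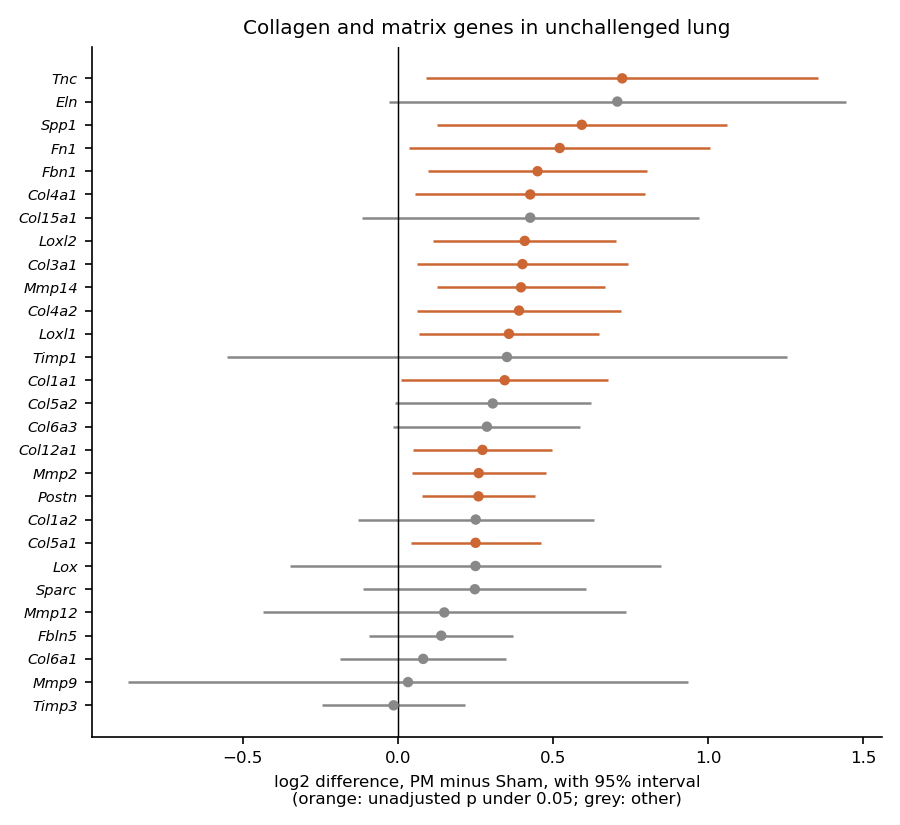
Log2 difference, PM minus Sham (x axis), with its 95% interval for the 28 tested collagen and matrix genes (y axis). The 15 genes in orange have an unadjusted limma p under 0.05, all on the higher side, and every adjusted p is 0.904 or more.

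Genes of fatty acid and sterol synthesis, the list that holds Scd1, showed a smaller shift. Of 21 genes 0 were called, and 5 had an unadjusted p under 0.05 on the higher side (23.8%, beside 2.35% of all genes) and 0 on the lower. The median log2 difference was 0.15. The median was 0.09 without PM replicate 5, and 0.05 without both PM replicate 5 and Sham replicate 3. Besides Scd1 the 5 genes at that p were Acaca, which makes malonyl-CoA (0.51), the fatty acid synthase Fasn (0.29), the elongase Elovl6 (0.29) and Dhcr7, the last enzyme of cholesterol synthesis (0.29). Acaca was low, at a mean of 1.01 RPM in Sham and 1.58 RPM in PM. Fasn was at 190, 265 and 292 RPM in Sham and 227, 289 and 455 RPM in PM, and its highest value was again that of PM replicate 5. The counts were 3 without PM replicate 5, PM replicate 4 or Sham replicate 3, and 1 without both PM replicate 5 and Sham replicate 3. Srebf1 and Srebf2, the factors that switch on these pathways, had log2 differences of 0.05 and 0.09.

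All 24 proliferation genes had a log2 difference above 0, beside 55.3% of all genes, with a median of 0.29. Of these 0 were called, and 20.8% had an unadjusted p under 0.05 on the higher side, beside 2.35% of all genes. The 5 at an unadjusted p under 0.05 were Mcm2 (0.37) and Mcm3 (0.28) of the replication helicase, the centromere protein Cenpf (0.67), the proliferation marker Mki67 (0.55) and the topoisomerase Top2a (0.55). Mki67 was at 7.17, 11.8 and 21.3 RPM in Sham and 10.6, 16.5 and 40.3 RPM in PM. The highest value was that of PM replicate 5, without which the median of the list was 0.09 and 1 gene had an unadjusted p under 0.05. The count was also 1 without Sham replicate 7, 2 without Sham replicate 4, PM replicate 3 or PM replicate 4, and 3 without Sham replicate 3, 5 or 6 or with median-of-ratios scaling.

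Clock genes varied widely among the lungs of a group. The clock is a loop in which Clock, Npas2 and Arntl (BMAL1) bind E-boxes and switch on Per, Cry, Ciart and the factors Dbp, Tef and Hlf, which in turn act through D-boxes, so its transcripts follow the time of day in lung. The labels give no time of collection. The promoters of 2 members are shown because they carry these boxes more than once, as read from RefSeq on GRCm38.p6, 5′ to 3′ on the strand of the gene (the minus strand for both), with each E-box (CACGTG) or D-box (TTATGTAA, or its reverse complement) in capitals. Ciart spans chr3:95882179-95882478 and Per3 chr4:151044616-151044915, from 250 bases before to 50 after the start.
Ciart: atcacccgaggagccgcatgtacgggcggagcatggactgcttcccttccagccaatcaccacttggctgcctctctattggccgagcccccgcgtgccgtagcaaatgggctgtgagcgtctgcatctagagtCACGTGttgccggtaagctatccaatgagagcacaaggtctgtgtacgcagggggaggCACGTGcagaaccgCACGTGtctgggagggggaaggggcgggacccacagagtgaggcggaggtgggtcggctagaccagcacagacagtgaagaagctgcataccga
Per3: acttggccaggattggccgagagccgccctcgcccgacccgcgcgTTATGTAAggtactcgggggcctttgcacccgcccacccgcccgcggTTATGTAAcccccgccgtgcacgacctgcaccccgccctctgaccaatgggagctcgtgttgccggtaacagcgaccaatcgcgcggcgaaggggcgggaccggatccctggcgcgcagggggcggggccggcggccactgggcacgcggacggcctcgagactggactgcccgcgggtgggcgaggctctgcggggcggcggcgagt
Of 32851 RefSeq promoters of this length, searched on both strands, 7.15% held an E-box and 0.938% a D-box. Of the 20 clock genes 16 had a promoter here, in 21 windows, and 5 of these genes held an E-box and 1 a D-box in any window. The shares over all promoters count single windows, so they are not in the same unit as these gene counts. The letters describe the window and are no measure of binding.

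In the clock list 0 of 19 tested genes were called, and 3 had an unadjusted p under 0.05 on the lower side (15.8%, beside 1.79% of all genes) and 0 on the higher. The median log2 difference was -0.33, with 14 members below 0 and 5 above, beside 55.3% of all genes above 0. Ciart, the repressor whose promoter is shown, was at 3.99, 4.76 and 17.9 RPM in Sham and 2.57, 3.48 and 6.46 RPM in PM (log2 difference -0.66, SE 0.30). Per1, a repressor of the same loop, was also among the 3 (-0.33). Per3 was at 37.1, 62.8 and 246 RPM in Sham and 25.6, 39.4 and 109 RPM in PM (-0.72, SE 0.44). Sham replicates 3 and 7 held the top values, at 246 and 233 RPM for Per3, 187 and 188 RPM for Per2, 339 and 338 RPM for Dbp, and 713 and 745 RPM for Tef. The same lungs had the lowest values of Arntl (1.79 and 2.61 RPM, beside 4.28 to 25.5 RPM in the other 12) and of Npas2 (1.10 and 0.954 RPM). Without Sham replicate 3, or without Sham replicate 7, 0 clock genes had an unadjusted p under 0.05 and the median was -0.21 or -0.20, and the count was also 0 without PM replicate 4 or PM replicate 6. It was 1 without PM replicate 1, 3 or 7, 5 without PM replicate 5 and 6 without Sham replicate 2.

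**Figure D4:**
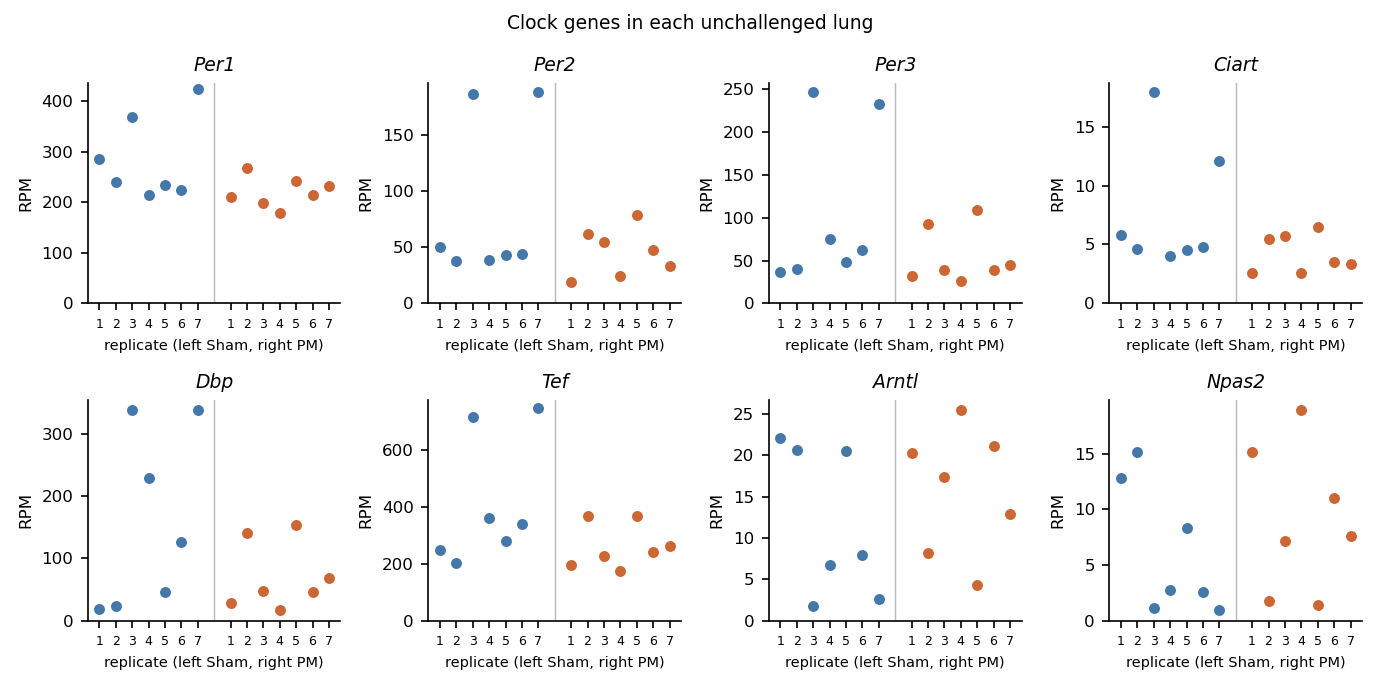
RPM (y axis, from 0) of 8 clock genes in each lung, with Sham replicates 1 to 7 on the left in blue and PM replicates 1 to 7 on the right in orange. Sham replicates 3 and 7 are highest for Per1, Per2, Per3, Ciart, Dbp and Tef and lowest for Arntl and Npas2.

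Immune and inflammatory lists held 0 to 2 genes each at an unadjusted p under 0.05. Over all genes the shares were 2.35% higher and 1.79% lower. In these short lists they were 8% for cytokines and chemokines, 7.14% for interstitial macrophages and 12.5% for granulocytes on the higher side. The share was 20% for plasma cells on the lower side. Dendritic cells had 1 of 16 on each side (6.25%), and monocytes 1 of 12 on the higher (8.33%), which was Fn1. Of 25 cytokine and chemokine genes 2 had an unadjusted p under 0.05, both higher in PM: Ccl2, which attracts monocytes, at 0.289, 0.557 and 1.34 RPM in Sham and 0.757, 0.972 and 1.58 RPM in PM (log2 difference 0.52, SE 0.19), and the interferon-induced Cxcl9 (0.45). All values of both genes were under 2 RPM. In the lists for the type 2 response (14 genes, median 0.05), interferon-stimulated genes (25, median 0.05), T cells (20, median -0.06), NK cells (15, median -0.01), B cells (12, median 0.12), alveolar macrophages (14, median 0.16) and MHC class II (13, median 0.09), 0 genes were called and 0 had an unadjusted p under 0.05. Interstitial macrophages had 1 of 14, the folate receptor gene Folr2 (0.41), but 13 of the 14 lay above 0, beside 55.3% of all genes, and the median was 0.27. Granulocytes had 2 of 16 (median 0.20), with the smallest p for the neutrophil lactoferrin Ltf (0.71). Plasma cells had 2 of 10 on the lower side, the secretory pathway gene Derl3 (-0.45) and Jchain (-0.75), while 6 of the 10 lay above 0 and the median was 0.05. Jchain, the joining chain of secreted antibodies, was at 30.9, 39.4 and 145 RPM in Sham and 14.2, 27.2 and 52.7 RPM in PM, with the highest value in Sham replicate 6.

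Epithelial lists gave 0 or 1 gene each at an unadjusted p under 0.05, beside 2.35% of all genes higher and 1.79% lower. Among alveolar type 2 genes 1 of 14 had an unadjusted p under 0.05, Lamp3 of the lamellar bodies, at 120, 223 and 278 RPM in Sham and 223, 257 and 332 RPM in PM (log2 difference 0.38, SE 0.17). Sftpc had a log2 difference of 0.07 (interval -0.54 to 0.68), Scgb1a1 of -0.26 (interval -1.01 to 0.49) and Chrm3, the muscarinic receptor through which methacholine contracts airway muscle, of -0.02 (interval -0.38 to 0.35). Without PM replicate 5 the difference of Sftpc was -0.08. Of 16 multiciliated cell genes 15 had a difference below 0 and 1 above (median -0.13), beside 55.3% of all genes above 0. In that list 0 had an unadjusted p under 0.05, and the smallest p was that of the dynein gene Dnah9 (-0.27). The largest difference of any tested gene was that of Bpifa1, a secreted protein of the upper airways, at 2.04 (SE 0.87), but its values ran from 0.190 to 27.6 RPM in Sham and from 0.358 to 78.6 RPM in PM. The groups overlapped, and the adjusted p by limma was 0.904. Over all 50 lists 773 members were tested, 0 were called, and the summed RPM of the groups overlapped for each of the 50.

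Finally, the maternal difference was set beside that between PM-OVA and Sham-OVA lungs, which come from other mice. In those lungs limma again called 0 of the same genes, and 285 (1.76%) had an unadjusted p under 0.05, with a median standard error of 0.35. Their depth was lower, with 2298645 reads on genes in Sham-OVA replicate 3, 5922469 in PM-OVA replicate 3 and 4324326 in PM-OVA replicate 4. In Sham-OVA replicate 3, 1 read was worth 0.311 RPM, which limits the differences given here for genes of low level. Scd1 was at 1070 ± 163 RPM in Sham-OVA (SD, n = 5) and 747 ± 65.6 RPM in PM-OVA (SD, n = 4), a log2 difference of -0.50 (SE 0.18), opposite in sign to the 0.80 without OVA. The interaction of maternal exposure and challenge for Scd1 was -1.31 with an adjusted p of 0.622 by limma, and 0 genes (0%) passed at 0.05, with 791 (4.87%) at an unadjusted p under 0.05. Of the 24 genes of smallest p without OVA 9 had the same sign with OVA, and of the 671 genes at an unadjusted p under 0.05 the same held for 264 (39.3%), beside 46.0% of all genes. The medians with OVA were -0.05 for collagen and matrix, -0.48 for proliferation and 0.59 for the clock, each opposite in sign to the 0.33, 0.29 and -0.33 without OVA. Those for fatty acid and sterol synthesis (0.03) and pericytes (0.10) had the same sign as the 0.15 and 0.18 without OVA. Whether a list differed between the 2 settings was not tested.

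**Figure D5:**
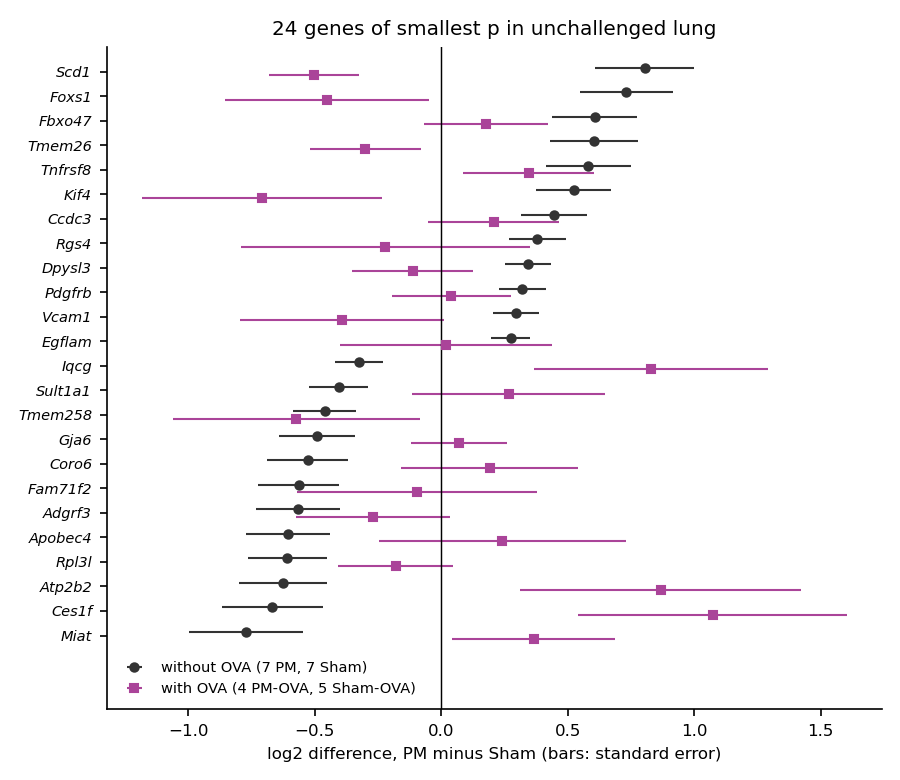
Log2 difference, PM minus Sham (x axis, bars 1 standard error), of the 24 genes with the smallest p in unchallenged lungs (y axis), without OVA as black circles and with OVA as purple squares. The sign is the same in 9 of the 24, and most bars are wider with OVA.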

How the data were processed

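RNA was isolated from whole lung pieces, poly(A)-selected and sequenced from a stranded library kit. According to the study's methods, Trimmomatic was used by the authors for trimming, Bowtie2, which does not split reads at introns, for alignment to GRCm38, and SeqMonk for quantification. The values deposited by the authors are RPM, although the table is named after RPKM: in every library, 100% of values came out as whole reads (tolerance 0.05) when divided by the RPM of 1 read, whatever the gene length. Levels of different genes were therefore not compared.

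Values were transformed to log2(RPM + 0.5) and fitted in R 4.3.3 by limma 3.58.1 using a variance trend, no covariate and Benjamini-Hochberg adjustment over all tested genes. Unadjusted p-values are descriptive. Reads recovered from the RPM were tested with edgeR 4.0.16 and DESeq2 1.42.0. Standard errors and intervals are those of limma. Other alternatives were pseudocounts of 0.1 and 1, other filters, scalings, robust estimation, array weights, all 4 groups in one fit, a replicate block, and leaving out each library. Fits without both Sham replicate 3 and PM replicate 5, and 4 of the 50 lists (pericyte, mesothelium, platelet, liver-secreted protein), were added after the data were seen.

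The comparison, its members and the lists were chosen with earlier results of these data known. Genes were named by a rule: the 12 higher and 12 lower with the smallest p, predicted genes left out (0 and 1), genes whose groups did not overlap, the member of a list with the smallest p, and 12 markers or targets. Other list members named were chosen after their values were seen. The values of 1 gene are not reported here. Coordinates are GENCODE GRCm38, promoters RefSeq GRCm38.p6. Python 3.11.15 and matplotlib 3.10.9 made the plots.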

Additional observations from a re-analysis of the deposited data

Results flagged for a closer look

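Values far from the other lungs of their group were sought on the log2 scale in 274 sets of 7, and 50 were found (18.2%). The rule flags about 1 in 20 sets of independent, normally distributed values. That rate is no benchmark here, since some genes were named because they mark single lungs. Genes and the lists that hold them also repeat the same lung, so no excess is read from the 50. The group labels of the lungs stay as given, and the cause of these values was not tested.

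PM replicate 5 held 20 of the 50. Its summed RPM was the lowest of the PM lungs for capillary endothelium (5031), other endothelium (963), TGF-beta and SMAD genes (5258) and the lists named alveolar macrophage (341) and mast cell (290.0). It was the highest for surfactant and type 2 cells (37828), antioxidant genes (7686), smooth muscle (4206), matrix (15237), proliferation (309), the mitochondrial genome (16956) and X inactivation (1402). The mast cell sum rests mainly on Gata2 and Kit (means of 276 and 253 RPM in Sham), while Cpa3, Cma1, Tpsb2 and Mcpt4 each averaged under 1 RPM in Sham. Car4 (208 RPM) is in both the alveolar macrophage and the capillary list. The study lists Gata2, Kit and Car4 as endothelial signature genes, so neither sum measures mast cells or macrophages alone. Among single genes it was highest for Sftpc (18493 RPM), Fn1 (1627), Fscn1 (93.8), Acta2 (302) and Xist (1385), and lowest for Cyp1a1 (7.69), Gsta3 (44.4) and Cd8a (5.40).

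Sham replicate 1 was highest for Ddx3y (123 RPM), Eif2s3y (54.0), Kdm5d (27.5), Uty (17.7) and their list (222), and lowest for Xist (0.289) and its list (18.8). Sham replicate 3 was lowest for Tmem26 (1.79 RPM), Pdgfrb (133), Rgs4 (17.9) and the pericyte list (609), all of which lie on the higher side in PM, and highest for the mitochondrial genome (30112). Pdgfrb kept its sign without this library. Since 6 PM lungs lay above every Sham lung for Pdgfrb, its values fixed that outcome, which is no support.

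Sham replicate 4 was highest for Bpifa1 (27.6 RPM), the atrial peptide gene Nppa (2.28), granulocytes (847) and liver-secreted proteins (274). Sham replicate 6 was highest for Clca1 (6.16), a goblet cell gene, Jchain (145), Retnla (94.1) and immediate early genes (6992). Sham replicate 7 was lowest for Mrc1 (35.4) and Hmox1 (25.6). PM replicate 1 was highest for Clca1 (178), goblet genes (279) and Iqcg (13.5), PM replicate 3 for NK cell genes (258), and PM replicate 4 for Ctss (154) and, at 2 reads, for Ddx3y and the Y list (0.132 each). PM replicate 7 was lowest for Dnmt3b (3.36).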

How the results depend on the processing

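No gene was called under any alternative, and the smallest adjusted p ranged from 0.562 with DESeq2 to 1 with all 4 groups in one fit. The 24 genes of smallest p kept their sign in all 714 values, 1 per gene and alternative fit. These fits share most libraries with the fit that picked the genes, so a kept sign is no independent support. At an unadjusted p under 0.05, all 4 groups in one fit gave 68 genes higher and 72 lower, and the lower count was 500 with edgeR, 499 with DESeq2, 630 without Sham replicate 6 and PM replicate 1, and 847 without Sham replicates 1 and 6 and PM replicate 1. Leaving out each library gave 243 (without Sham replicate 3) to 623 (Sham replicate 4) higher and 170 (Sham replicate 7) to 705 (Sham replicate 6) lower, with 616 higher without Sham replicate 6, 587 without PM replicate 5, 266 without Sham replicate 7, and 177 lower without Sham replicate 3. Non-overlapping genes were 0 to 13 (PM replicate 5) higher and 1 to 19 (Sham replicate 6) lower. PM-OVA against Sham-OVA gave 154 (PM-OVA replicate 2) to 799 (Sham-OVA replicate 3) genes at that p. Without both Sham replicate 3 and PM replicate 5, the list counts were 9 for matrix, 1 for fatty acid and sterol synthesis, 2 for proliferation and 1 for the clock, and proliferation gave 3 with median-of-ratios scaling. Leaving out each library gave 11 to 18, 3 to 7, 1 to 6 and 0 to 6 in the same order, and 3 to 6 pericyte genes. The sign turned for Dnmt3a with array weights (0.016) or without those 2 libraries (0.0070), Cyp1b1 likewise (0.028 and 0.014), Ahrr with a pseudocount of 0.1 (0.065), Acta2 without those 2 libraries (-0.0087), and Nqo1 with median-of-ratios scaling (-0.0014), TMM (-0.0051), edgeR (-0.031) and DESeq2 (-0.028). Leaving out 1 or more libraries gave log2 differences of -0.063 to 0.011 for Dnmt3a, -0.19 to 0.014 for Cyp1b1, -0.23 to 0.14 for Ahrr, -0.074 to 0.12 for Nqo1, -0.076 to 0.17 for Sftpc, -0.0087 to 0.28 for Acta2 and -0.12 to 0.051 for Chrm3. The cause was not tested. The replicate numbers do not pair the mice, since deviations of same-numbered libraries correlated with r of -0.255 to 0.103, and with a replicate block 0 genes were called. Depth limits genes near the value of 1 read, 0.0502 to 0.0688 RPM in the 14 libraries and up to 0.311 RPM in those with OVA.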

Other observations

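Some transcripts that most lungs hardly held were abundant in a few. Alb, the serum albumin gene of liver, was at 111 RPM in Sham replicate 4, 36.5 in PM replicate 4 and 10.7 in PM replicate 6, against 0.291 to 5.41 RPM in the other 11 lungs, and Apoa1 and Ttr, also secreted by liver, were highest in the same 2 lungs, at 31.1 and 8.43 RPM for Apoa1 and 16.8 and 6.78 RPM for Ttr. The heat shock gene Hspa1a ran from 2.68 to 122 RPM in PM and from 3.42 to 71.2 RPM in Sham. S100a8, a neutrophil protein gene, ran from 17.1 to 172 RPM in Sham and from 12.3 to 117 RPM in PM. Prg4, which encodes lubricin and marks the pleural surface, was at 0.552, 0.887 and 3.70 RPM (lowest, median, highest) in Sham and 1.35, 3.82 and 18.9 RPM in PM, a log2 difference of 1.34 (SE 0.46; limma, adjusted p = 0.904), while 6 of 10 mesothelial genes lay below 0 (median -0.04) and Prg4 was the 1 with an unadjusted p under 0.05. These genes were chosen after their values were seen.

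The spread between lungs was wider in Sham than in PM, with a median SD over genes of 0.26 against 0.20 on the log2 scale, which was not tested. Red blood cell genes had a difference below 0 in 7 of 7 (median -0.18) and ribosomal protein genes in 22 of 27 (median -0.11), beside 55.3% of all genes above 0. Of the ribosomal genes 1 of 27 had an unadjusted p under 0.05 (3.7%, beside 1.79% of all genes lower), Rpl18 (-0.35), and 0 were called in either list.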
